A study of Homo sapiens with 18 samples.

Results

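The RNA levels of 10 genes around the coactivators YAP and TAZ were followed through 18 RNA Seq libraries of prostate cancer cells. The genes were chosen by name and found by their Ensembl identifiers, 10 of the 60675 genes listed in the count files, of which 43853 had at least 1 count. They were the coactivators YAP1 and WWTR1 (which encodes TAZ), the DNA-binding factor TEAD1, the target genes CCN1 (CYR61), CCN2 (CTGF) and ANKRD1, the angiomotins AMOTL1 and AMOTL2, the LATS inhibitor AJUBA and the kinase LATS2.

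In the Hippo pathway, a cascade of kinases ending in LATS1 and LATS2 phosphorylates YAP and TAZ, which are then held in the cytoplasm or degraded. YAP and TAZ that escape phosphorylation enter the nucleus and bind TEAD factors on DNA, and CCN1, CCN2 and ANKRD1 are the genes most often read as their output. AMOTL1, AMOTL2, AJUBA and LATS2 act on YAP and TAZ or on the LATS kinases, and several of them are themselves target genes, so that the pathway feeds back on itself.

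The libraries came from LNCaP, an androgen-dependent line, and C4-2, an androgen-independent line derived from it, and each line had 3 groups of 3 libraries. Cells had scrambled siRNA (siScr) and vehicle, siScr and R1881, a synthetic androgen given at 1 nM for 72 h, or siRNA pools against KDM1A and KDM7A together (dual knockdown) and the same R1881 treatment. KDM1A and KDM7A encode lysine demethylases of histones, and the comparisons asked what androgen changed and what the loss of both demethylases changed under androgen. All 18 libraries shared transfection with DharmaFECT 2 and growth in medium without phenol red and with serum depleted of hormones. Neither demethylase was knocked down alone, and each line is 1 line, so that line and clone cannot be told apart. The titles of the 3 C4-2 vehicle libraries name C4-2 whereas their cell line field names LNCaP, and they were grouped by title. The siScr R1881 libraries of a line served both as the treated group of the R1881 comparison and as the control of the dual knockdown.

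Total counts per library were 3182604 to 20154243 with a median of 18117641. The lowest was C4-2 vehicle replicate 3, and the next lowest library had 10485096 counts. Levels are given as CPM, counts scaled to a common library size with edgeR's TMM factors over all 18 libraries, as mean ± SD with n = 3, and levels of different genes were compared only per length, as TPM, which divides each count by the exonic length of the gene. KDM1A fell by 1.05 (log2FC) with dual knockdown in LNCaP and by 3.12 in C4-2, and KDM7A fell by 0.93 and by 2.51. The androgen-responsive gene KLK3 rose by a log2FC of 3.70 with R1881 in LNCaP and of 4.16 in C4-2. All 10 luminal markers examined reached a mean of 1 CPM in every group. The summed basal markers KRT5, KRT14, KRT15 and TP63 were 0 to 3.66 CPM per library, and the 8 mesenchymal markers 24.7 to 44.1 CPM. The leukocyte and endothelial markers PTPRC, PECAM1 and CDH5 summed to 2.04 to 3.52 CPM in the C4-2 vehicle libraries, where PECAM1 was at 0, and to at most 0.22 CPM in the others. C4-2 dual knockdown replicate 1 stood apart from the other two of its group, with chi-square values per gene of 15.3 and 13.5 between their counts where those differed by 3.29, and so did the shallow C4-2 vehicle replicate 3, at 16.9 and 16.6 against 4.89.

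Per length, YAP1 was the most abundant of the 10 genes in every group, with group means of 66.8 to 101 TPM. AJUBA (8.73 to 33.5 TPM), LATS2 (8.37 to 24.6 TPM) and TEAD1 (10.3 to 27.9 TPM) followed, and their ranges over the groups overlapped. CCN1 stood at 5.06 to 9.57 TPM. AMOTL1 (0.60 to 5.26 TPM), WWTR1 (0.32 to 4.71 TPM) and AMOTL2 (1.46 to 3.17 TPM) lay lower and also overlapped. ANKRD1 reached at most 0.77 TPM and CCN2 at most 0.22 TPM. In LNCaP vehicle cells the order was YAP1 at 101 ± 5.2 TPM, AJUBA at 33.5 ± 2.3, TEAD1 at 27.9 ± 2.4, CCN1 at 9.57 ± 0.88 and LATS2 at 8.99 ± 0.85, of which CCN1 and LATS2 lay within 1 SD of each other. In C4-2 vehicle cells LATS2 stood second at 24.6 ± 2.6 TPM, above AJUBA at 17.4 ± 0.68 and TEAD1 at 15.4 ± 1.4, and AMOTL1 had dropped to 0.60 ± 0.22 TPM. The 2 usual readouts CCN2 and ANKRD1 were thus nearly silent in cells with abundant YAP1 RNA.

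CCN2 (ENSG00000118523, chromosome 6, 131948176 to 131951373, minus strand, GRCh38) encodes connective tissue growth factor, and ANKRD1 (ENSG00000148677, chromosome 10, 90912096 to 90921276, minus strand) an ankyrin-repeat protein of muscle and stretched cells. CCN1 (ENSG00000142871, chromosome 1, 85580761 to 85583962, plus strand) encodes a matrix protein of the same family as CCN2. The promoter windows of CCN2 and ANKRD1 are shown because both genes are known TEAD targets with nearly no RNA here, and that of WWTR1 because it had the largest change with R1881. Each runs from 250 bases before to 50 bases after a gene start, 5′ to 3′ along the gene, and was taken from RefSeq (GRCh38.p14). Capitals mark the TEAD motif GGAATG and the AP-1 motif TGANTCA, both searched on both strands. WWTR1 has 2 windows in the table, and neither held a match.
CCN2 (chr6:131951323-131951622, minus strand): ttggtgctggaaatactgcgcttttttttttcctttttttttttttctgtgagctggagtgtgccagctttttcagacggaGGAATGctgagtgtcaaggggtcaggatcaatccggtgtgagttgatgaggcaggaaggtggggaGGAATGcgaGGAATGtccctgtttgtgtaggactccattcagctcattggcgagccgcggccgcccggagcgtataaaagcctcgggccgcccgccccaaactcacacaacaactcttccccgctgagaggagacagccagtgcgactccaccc
ANKRD1 (chr10:90921038-90921337, minus strand): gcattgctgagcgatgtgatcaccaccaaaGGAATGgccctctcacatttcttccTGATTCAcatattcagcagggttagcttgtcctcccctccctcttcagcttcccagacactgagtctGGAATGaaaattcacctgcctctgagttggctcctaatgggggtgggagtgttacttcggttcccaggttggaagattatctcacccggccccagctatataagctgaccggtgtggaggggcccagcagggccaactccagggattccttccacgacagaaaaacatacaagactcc
WWTR1 (chr3:149657976-149658275, minus strand): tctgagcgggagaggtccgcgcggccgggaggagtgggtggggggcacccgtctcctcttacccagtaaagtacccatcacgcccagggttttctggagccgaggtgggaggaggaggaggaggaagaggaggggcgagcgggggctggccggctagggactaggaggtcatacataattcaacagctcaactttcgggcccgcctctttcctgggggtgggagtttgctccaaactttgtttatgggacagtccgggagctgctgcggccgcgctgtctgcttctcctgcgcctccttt

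CCN2 held GGAATG at 169, 104 and 95 bases before its start. ANKRD1 held it at 220 and 128 bases before its start, with the AP-1 match TGATTCA between them at 195. Entries were found for 8 of the 10 genes, in 11 windows, without TEAD1 and CCN1. GGAATG also occurred once each in the windows of YAP1 (162 bases before the start) and LATS2 (10 bases into the gene), and in 1 of the 2 windows each of AMOTL2 and AJUBA. It was in 14.0% of 35116 promoters of the same length, and TGANTCA in 7.71%. AMOTL1 held neither motif. The motifs do not overlap in these windows, and a match is a stretch of letters and not a measured site.

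R1881 raised WWTR1 strongly in both lines and lowered AJUBA and TEAD1 in both, whereas the output genes CCN1, CCN2 and ANKRD1 showed no change that passed. In LNCaP, 2 of the 8 genes tested were higher (WWTR1 and LATS2) and 4 lower (YAP1, TEAD1, AMOTL1 and AJUBA), against 46.6% of all 17162 genes tested that passed in either direction, 23.5% as higher and 23.2% as lower. In C4-2, 2 were higher (WWTR1 and AMOTL1) and 3 lower (TEAD1, AMOTL2 and AJUBA), against 32.8% of 16965 genes, 17.1% as higher and 15.7% as lower. The C4-2 count of 5 fell to 2 without vehicle replicate 2 and to 3 without vehicle replicate 1 or any R1881 replicate. CCN2 and ANKRD1 did not pass the filter on low counts in either line. A gene passed with an adjusted p under 0.05 in edgeR's quasi-likelihood test. WWTR1 was the only one with a log2FC of at least 1 in addition, called differentially expressed here, against 12.3% of all genes in LNCaP and 9.07% in C4-2. Vehicle and R1881 libraries did not overlap for 5 of the 8 genes in LNCaP, against 53% of all genes, and for 5 in C4-2, against 46.9%.

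**Figure D1:**
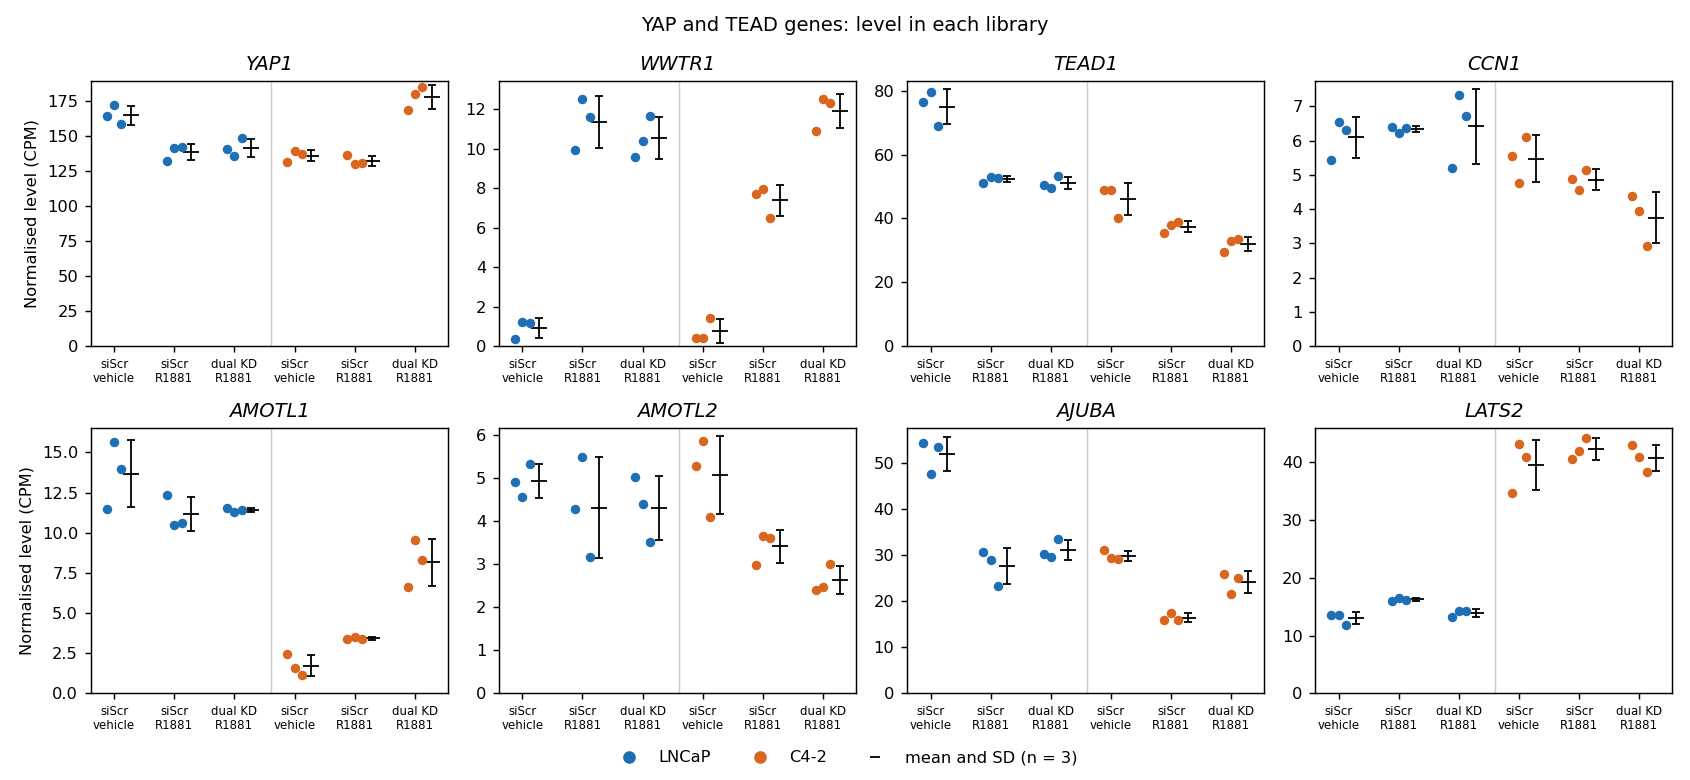
Level of the 8 genes above the low-count filter in each library (CPM, linear axes from 0), by group, with LNCaP in blue and C4-2 in orange, 1 point per library and the mean and SD of 3 libraries beside the points. WWTR1 is near 1 CPM in both vehicle groups and at 6.49 CPM or more in every library with R1881, and LATS2 and AMOTL1 are separated by line.

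WWTR1 (ENSG00000018408, chromosome 3, 149517235 to 149736714, minus strand) had CPM of 0.35, 1.25 and 1.15 in the LNCaP vehicle libraries and 9.96, 12.5 and 11.6 with R1881. In C4-2 it had 0.41, 0.40 and 1.46 with vehicle and 7.70, 7.98 and 6.49 with R1881. No vehicle library of either line came near a library with R1881. The log2FC was 3.48 (SE 0.23, adjusted p = 1.26e-09) in LNCaP and 3.83 (SE 0.29, adjusted p = 1.32e-07) in C4-2, about 11.2-fold and 14.2-fold. The vehicle levels rest on 4 to 27 counts per library in LNCaP and on 5 to 8 in C4-2. The antisense gene WWTR1-AS1 shares 9.45% of the exonic bases of WWTR1 and was counted 4 times in all 18 libraries. Counts of bulk RNA cannot tell more RNA per cell from more cells that carry it.

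YAP1 (ENSG00000137693, chromosome 11, 102110461 to 102233423, plus strand), the paralog of WWTR1, did not follow it. Its CPM in LNCaP were 165, 172 and 159 with vehicle and 132, 142 and 143 with R1881, a fall in every library of 0.27 (log2FC, SE 0.060, adjusted p = 0.00143 in edgeR). In C4-2 the libraries overlapped, at 132, 139 and 138 with vehicle and 137, 130 and 131 with R1881 (log2FC -0.04, SE 0.074, adjusted p = 0.710). An antisense gene with 0 counts shares 9.97% of YAP1's exonic bases.

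TEAD1 (ENSG00000187079, chromosome 11, 12674591 to 12944483, plus strand), the factor that brings YAP and TAZ to DNA, fell with R1881. In LNCaP its CPM were 76.4, 79.7 and 68.9 with vehicle and 51.2, 53.0 and 52.8 with R1881 (log2FC -0.54, SE 0.070, adjusted p = 7.11e-06). In C4-2 they were 48.9, 48.8 and 40.2 with vehicle and 35.5, 38.0 and 38.8 with R1881 (log2FC -0.32, SE 0.10, adjusted p = 0.0238). The groups did not overlap in either line. The C4-2 call was lost without any of the 5 libraries other than vehicle replicate 3 (log2FC -0.34 to -0.28, adjusted p 0.0544 to 0.104).

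AJUBA (ENSG00000129474, chromosome 14, 22971174 to 22982642, minus strand), a LIM protein that binds and inhibits LATS kinases, fell by nearly the same amount in both lines. Its CPM in LNCaP were 54.5, 47.7 and 53.7 with vehicle and 30.9, 29 and 23.3 with R1881, a log2FC of -0.92 (SE 0.10, adjusted p = 8.66e-07). In C4-2 they were 31.2, 29.5 and 29.1 with vehicle and 15.9, 17.5 and 15.9 with R1881, a log2FC of -0.87 (SE 0.10, adjusted p = 1.55e-05). Every R1881 library lay below every vehicle library of its line.

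LATS2 (ENSG00000150457, chromosome 13, 20973032 to 21061547, minus strand), the kinase that phosphorylates YAP and TAZ, rose slightly in LNCaP, from 13.6, 13.6 and 11.8 CPM to 16.0, 16.6 and 16.2 CPM (log2FC 0.31, SE 0.099, adjusted p = 0.0164). That call was lost without vehicle replicate 3 (log2FC 0.25, adjusted p = 0.0783). In C4-2 its libraries overlapped, at 34.6 to 43.1 CPM with vehicle and 40.5 to 44.2 CPM with R1881 (log2FC 0.10, adjusted p = 0.483).

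The angiomotins are scaffold proteins of cell junctions that bind YAP. AMOTL1 (ENSG00000166025, chromosome 11, 94706431 to 94876753, plus strand) had 11.5, 15.6 and 14.0 CPM with vehicle and 12.4, 10.5 and 10.6 CPM with R1881 in LNCaP, where the libraries overlapped (log2FC -0.32, SE 0.12, adjusted p = 0.0395). In C4-2 it rose from 2.43, 1.60 and 1.17 CPM to 3.41, 3.54 and 3.37 CPM without overlap (log2FC 0.85, SE 0.25, adjusted p = 0.0154). The LNCaP call was lost without vehicle replicate 2 or 3 or R1881 replicate 2 or 3 (log2FC -0.31 to -0.20) and with DESeq2 (adjusted p = 0.144), and the C4-2 call without vehicle replicate 2 (log2FC 0.70, adjusted p = 0.0915). AMOTL2 (ENSG00000114019, chromosome 3, 134355874 to 134375479, minus strand) fell in C4-2 from 5.28, 5.84 and 4.08 CPM to 2.97, 3.65 and 3.61 CPM (log2FC -0.62, SE 0.20, adjusted p = 0.0289). It had 4.55 to 5.33 CPM with vehicle and 3.16 to 5.49 CPM with R1881 in LNCaP, where its libraries overlapped (log2FC -0.22, adjusted p = 0.403). The C4-2 call of AMOTL2 was lost without any of the 5 libraries other than vehicle replicate 3 (log2FC -0.67 to -0.52, adjusted p 0.0545 to 0.139) and with DESeq2 (adjusted p = 0.0806).

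CCN1 was level in both lines. Its CPM were 5.43, 6.54 and 6.32 with vehicle and 6.40, 6.23 and 6.38 with R1881 in LNCaP (log2FC 0.03, SE 0.15, adjusted p = 0.889), and 5.54, 4.75 and 6.12 with vehicle and 4.89, 4.55 and 5.14 with R1881 in C4-2 (log2FC -0.14, SE 0.19, adjusted p = 0.621). The libraries of the groups overlapped in each line. Beside the R1881 comparisons, the summed basal markers went from at most 0.19 to 2.59 to 3.66 CPM per library in LNCaP and from at most 0.40 to 1.35 to 1.59 CPM in C4-2. In that sum KRT14 went from a mean of 0.049 to 1.18 CPM and KRT15 from 0 to 1.98 CPM in LNCaP. In C4-2 KRT14 went from 0.11 to 0.98 CPM and KRT15 from 0.038 to 0.41 CPM. KRT5 and TP63 reached a mean of at most 0.073 CPM in these groups. PTPRC went from a mean of 2.44 to 0.080 CPM in C4-2. The summed mesenchymal markers, of which COL1A2 and LUM were at 0 in C4-2 under siScr, went from 33.8 to 43.1 CPM with vehicle to 24.7 to 29.6 CPM with R1881 in C4-2. Of 4 tested of 8, 1 was higher there and 3 lower, against 32.8% of all genes in either direction. In LNCaP the mesenchymal sum was 25.2 to 32.9 CPM with vehicle and 25.4 to 30.5 CPM with R1881. There 2 of 5 tested were higher and 2 lower, against 46.6% of all genes. The part of these markers in the changes of the 10 genes was not tested.

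Dual knockdown under R1881 raised 4 of the 8 genes tested in C4-2 and none in LNCaP. The 4 were YAP1, WWTR1, AMOTL1 and AJUBA, against 12.7% of all genes tested in C4-2 that passed as higher, 10.8% as lower and 23.5% in either direction. AMOTL1 was the 1 gene with a log2FC of at least 1, against 3.94% of all genes. A test of the difference in response between the lines passed for AMOTL1 and YAP1, and not for WWTR1 and AJUBA. In LNCaP, edgeR's test passed 0 of 8 genes, against 14.2% of all genes, 8.27% as higher and 5.89% as lower, and none of the 8 had a log2FC of at least 1 with it, against 0.286%. Of the 8, 0 had an unadjusted p under 0.05 and DESeq2 also passed 0. Libraries did not overlap for 1 of the 8 genes (LATS2) in LNCaP, against 34.5% of all genes, and for 6 in C4-2, against 40.5%. ANKRD1, below the filter in both lines, was counted almost only in libraries with dual knockdown. The knockdown itself was deeper in C4-2 than in LNCaP (difference in log2FC of -2.04 for KDM1A, adjusted p = 2.36e-09), so that line and depth of knockdown cannot be told apart. In C4-2 the summed mesenchymal markers went from 24.7 to 29.6 CPM with siScr to 35.8 to 44.1 CPM with dual knockdown, with DCN at 0. COL1A1 was the 1 of 4 tested that passed (log2FC 0.58, adjusted p = 0.00915), against 23.5% of all genes. The summed basal markers went from 1.35 to 1.59 CPM to 1.92 to 3.16 CPM, with 1 of 2 tested passing, against the same share of all genes. In that sum KRT15 went from a mean of 0.41 to 1.53 CPM and KRT14 from 0.98 to 1.03 CPM, and KRT5 was at 0 with dual knockdown. The part of these mesenchymal and basal markers in the result was not tested. Without C4-2 dual knockdown replicate 1, which stood apart, 4 genes passed as well (log2FC 0.46 for YAP1, 0.75 for WWTR1, 1.37 for AMOTL1 and 0.50 for AJUBA).

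**Figure D2:**
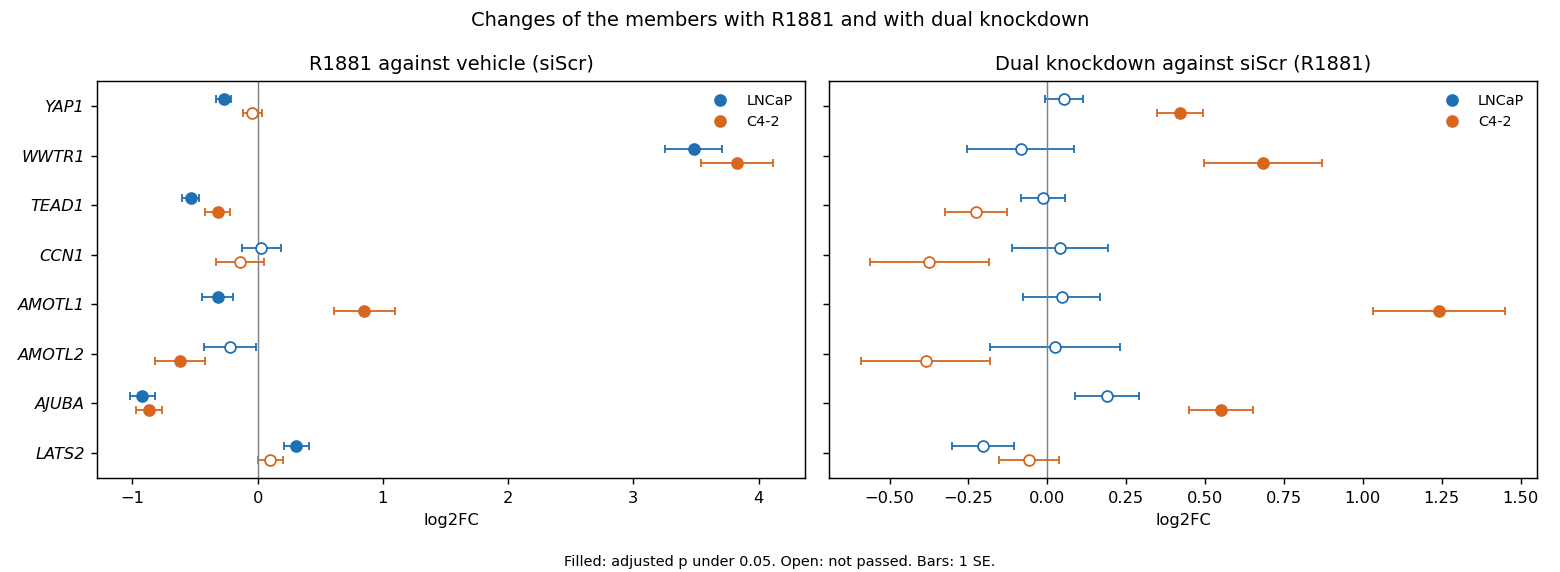
The log2FC of the 8 genes tested, with bars of 1 SE, for R1881 against vehicle (left) and dual knockdown against siScr under R1881 (right), LNCaP in blue and C4-2 in orange, filled where the adjusted p was under 0.05. WWTR1 stands at 3.48 and 3.83 with R1881, and all 8 LNCaP points of the dual knockdown are open.

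AMOTL1 had 3.41, 3.54 and 3.37 CPM in the C4-2 siScr R1881 libraries and 6.63, 9.55 and 8.29 CPM with dual knockdown. The groups did not overlap, and the log2FC was 1.24 (SE 0.21, adjusted p = 7.38e-04 in edgeR), about 2.36-fold. In LNCaP it stayed at 12.4, 10.5 and 10.6 CPM with siScr and 11.5, 11.3 and 11.4 CPM with dual knockdown (log2FC 0.05, SE 0.12, adjusted p = 0.849). Even after the rise in C4-2, AMOTL1 remained below its lowest LNCaP library.

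YAP1 rose in C4-2 from 137, 130 and 131 CPM to 169, 181 and 185 CPM (log2FC 0.42, SE 0.072, adjusted p = 8.27e-04). WWTR1 rose there from 7.70, 7.98 and 6.49 CPM to 10.9, 12.5 and 12.3 CPM (log2FC 0.68, SE 0.19, adjusted p = 0.0157). AJUBA rose from 15.9, 17.5 and 15.9 CPM to 26.0, 21.6 and 25.1 CPM (log2FC 0.55, SE 0.10, adjusted p = 0.00135), and its vehicle level was 29.9 ± 1.1 CPM. Its fall with R1881 and this rise share the siScr R1881 libraries, so they are not independent. For all 3 genes each dual knockdown library lay above each siScr library. The call of WWTR1 was lost without siScr replicate 1 or 3 or dual knockdown replicate 2 or 3 (log2FC 0.60 to 0.71, adjusted p 0.0557 to 0.0946), and with all libraries thinned to the smallest depth the log2FC was 0.16 (adjusted p = 0.698).

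The same 3 genes in LNCaP gave overlapping libraries. YAP1 had 132, 142 and 143 CPM with siScr and 141, 136 and 149 CPM with dual knockdown (log2FC 0.05, adjusted p = 0.624). WWTR1 had 9.96, 12.5 and 11.6 CPM against 9.57, 10.4 and 11.7 CPM (log2FC -0.08, adjusted p = 0.796). AJUBA had 30.9, 29 and 23.3 CPM against 30.3, 29.7 and 33.5 CPM (log2FC 0.19, adjusted p = 0.235).

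TEAD1, CCN1, AMOTL2 and LATS2 did not pass in either line. In C4-2 the log2FC were -0.23 for TEAD1 (adjusted p = 0.116), -0.37 for CCN1 (adjusted p = 0.174), -0.39 for AMOTL2 (adjusted p = 0.198) and -0.06 for LATS2 (adjusted p = 0.721). CCN1 was at 4.39, 3.95 and 2.93 CPM in those libraries and TEAD1 at 29.6, 32.9 and 33.7 CPM, each below all siScr libraries. In LNCaP the lowest p was that of LATS2, which had 13.2, 14.3 and 14.3 CPM with dual knockdown (log2FC -0.20, unadjusted p = 0.0511, adjusted p = 0.173).

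ANKRD1 was counted 39 times in the 18 libraries, 36 of them in the 6 libraries with dual knockdown and 3 in the other 12. In LNCaP its raw counts were 9, 9 and 6 with dual knockdown and 1, 0 and 0 with siScr under R1881. In C4-2 they were 7, 1 and 4 with dual knockdown and 0 in each siScr R1881 library. The groups did not overlap in either line, although 1 C4-2 library differed from 0 by 1 count. In LNCaP, 24 counts against 1, scaled by library size, gave a ratio of 22.2 with an exact 95% interval of 3.63 to 915 that covers counting error only. In C4-2, 12 counts against a floor of 3 counts set for the siScr group gave a ratio of 3.95. That ratio takes the 12 counts as exact and is not a lower limit. An exact 2-sided permutation test gave p = 0.1 in each line, the smallest that 3 against 3 libraries allow. Without the low-count filter edgeR's adjusted p was 0.00997 in LNCaP and 0.0395 in C4-2, and DESeq2 gave none. At its highest the level was still 0.57 CPM in a library.

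**Figure D3:**
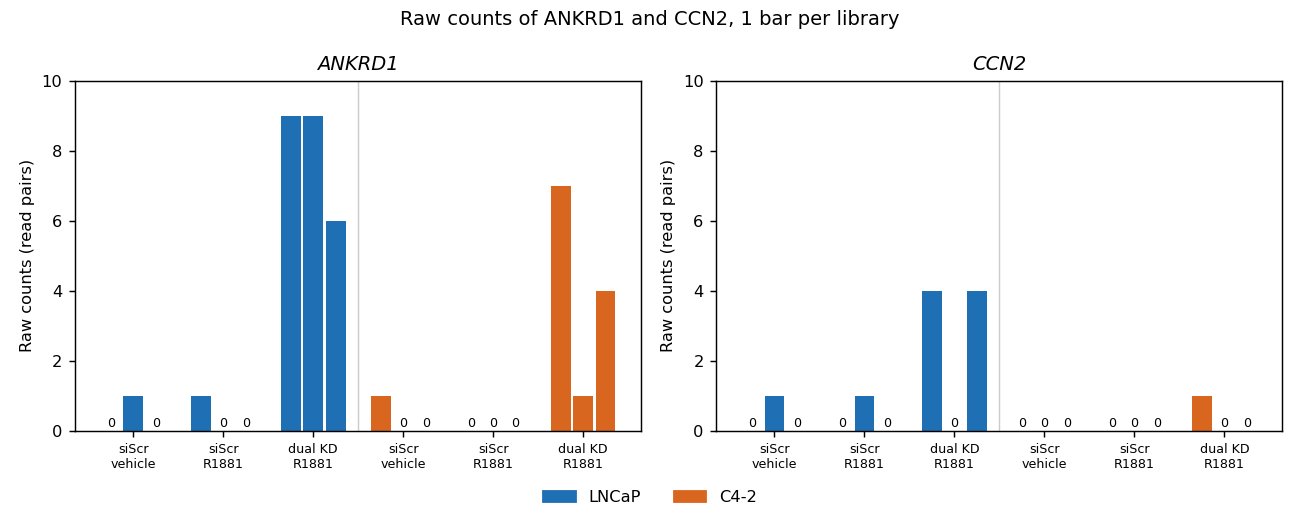
Raw counts (read pairs) of ANKRD1 (left) and CCN2 (right), 1 bar per library in 6 groups of 3, LNCaP in blue and C4-2 in orange, with 0 written where no read pair was counted. ANKRD1 reaches 9 counts with dual knockdown in LNCaP and 7 in C4-2, and at most 1 count in any other library.

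CCN2 was counted 11 times in all, 8 of them in LNCaP with dual knockdown, where the libraries had 4, 0 and 4 counts against 0, 1 and 0 with siScr under R1881. The ratio of 7.41 had an exact 95% interval of 0.994 to 329, the groups overlapped, and a difference was not detectable at this depth (exact permutation p = 0.4). In C4-2 CCN2 had 1 count with dual knockdown and 0 in the 6 siScr libraries, where 3 counts over the group, the limit that a count of 0 allows, correspond to 0.0573 CPM with R1881 and 0.0746 CPM with vehicle. An antisense gene with 0 counts shares 8.34% of CCN2's exonic bases.

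Between the lines under siScr, C4-2 cells had far less AMOTL1 and more LATS2 than LNCaP cells, and less AJUBA and TEAD1. WWTR1 also passed as lower, but its vehicle libraries overlapped and its difference with R1881 changed sign when counts were thinned in 1 random draw. With vehicle, 1 of the 8 genes was higher in C4-2 and 5 lower, against 58.9% of 18684 genes that passed in either direction, 29.4% as higher and 29.5% as lower. With R1881, 1 was higher and 4 lower, against 58.3%, 28.6% as higher and 29.7% as lower. AMOTL1 and LATS2 passed with a log2FC of at least 1 in both conditions, against 24.2% and 23.8% of all genes. The libraries of the lines did not overlap for 5 of the 8 genes with vehicle, against 61.9% of all genes, and for 6 with R1881, against 64.8%. For AMOTL1 and LATS2, the C4-2 vehicle libraries whose cell line field names LNCaP lay on the C4-2 side of every LNCaP library. Both genes were named after the vehicle comparison, which already grouped these libraries as C4-2, so their position cannot check the label.

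AMOTL1 ran from 10.5 to 15.6 CPM over the 9 LNCaP libraries. In C4-2 it ran from 1.17 to 2.43 CPM with vehicle and from 3.37 to 3.54 CPM with R1881 under siScr. The log2FC between the lines was -2.84 with vehicle (SE 0.19, adjusted p = 5.06e-11), about 7.14-fold lower in C4-2, and -1.70 with R1881 (SE 0.17, adjusted p = 1.78e-08). LATS2 ran from 11.8 to 16.6 CPM in LNCaP and from 34.6 to 44.2 CPM in C4-2, with no overlap. Its log2FC was 1.60 with vehicle (SE 0.095, adjusted p = 5.18e-12) and 1.38 with R1881 (SE 0.090, adjusted p = 2.39e-11).

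AJUBA was lower in C4-2 by a log2FC of -0.79 with vehicle (adjusted p = 8.94e-07) and of -0.75 with R1881 (adjusted p = 2.18e-06). TEAD1 was lower by -0.68 (adjusted p = 2.35e-07) and by -0.48 (adjusted p = 1.85e-05). The libraries of the lines did not overlap for either gene in either condition. YAP1 was lower with vehicle (log2FC -0.28, adjusted p = 5.28e-04), and with R1881 its libraries overlapped (log2FC -0.07, adjusted p = 0.373). WWTR1 was lower with R1881 (log2FC -0.62, adjusted p = 0.00971), where the libraries of the lines did not overlap. That call was lost without C4-2 replicate 3 (log2FC -0.53, adjusted p = 0.0549). With all libraries thinned to the depth of the smallest in a random draw, its sign turned (log2FC 0.14, adjusted p = 0.708). With vehicle its libraries overlapped, and the log2FC of -0.95 (adjusted p = 0.0444) was lost without LNCaP replicate 2 or 3 or C4-2 replicate 1 or 2 (log2FC -0.82 to -0.69).

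CCN1 and AMOTL2 did not pass between the lines. CCN1 had a log2FC of -0.20 with vehicle (adjusted p = 0.333) and of -0.38 with R1881 (adjusted p = 0.0518), where each C4-2 library lay below each LNCaP library. AMOTL2 had 0.10 (adjusted p = 0.710) and -0.33 (adjusted p = 0.178), with overlapping libraries, and passed with R1881 only without LNCaP replicate 3 (log2FC -0.51, adjusted p = 0.0438). Beside the vehicle comparison, the leukocyte and endothelial markers summed to 0.18 to 0.22 CPM in LNCaP and 2.04 to 3.52 CPM in C4-2, and their part in it was not tested.

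**Figure D4:**
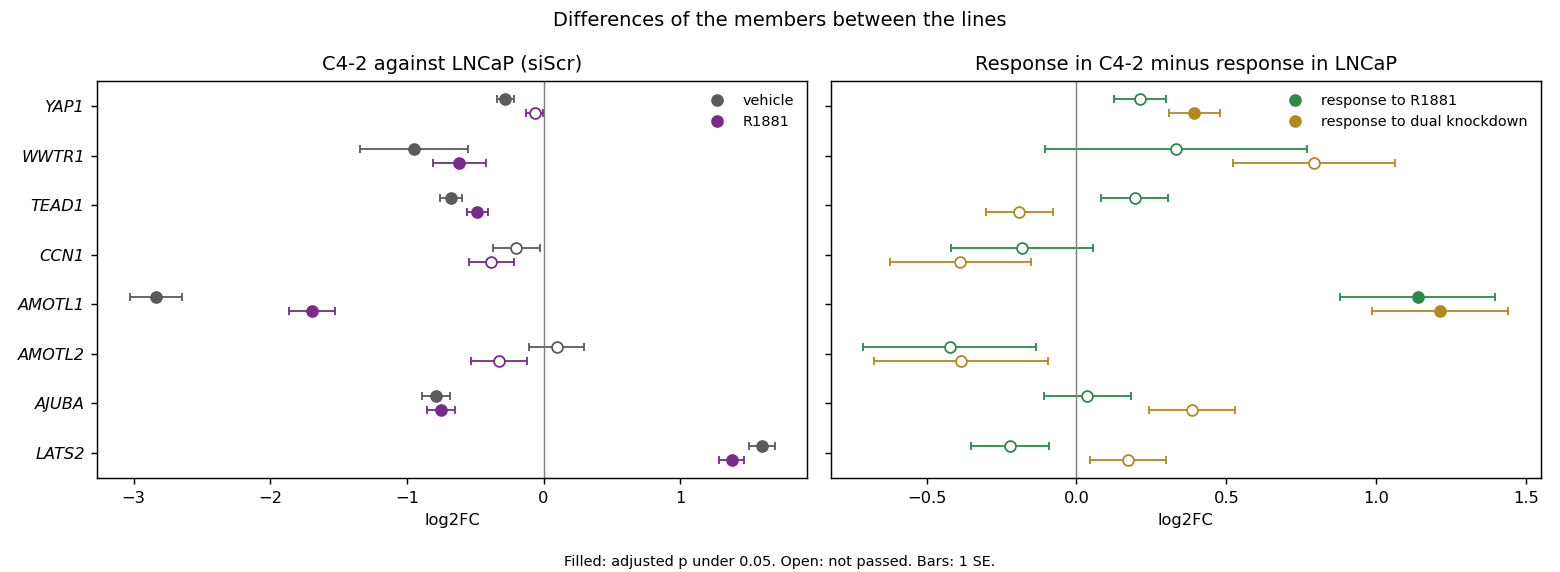
The log2FC of the 8 genes tested, with bars of 1 SE, for C4-2 against LNCaP under siScr with vehicle or R1881 (left) and for the response in C4-2 minus the response in LNCaP (right), filled where the adjusted p was under 0.05. AMOTL1 has the largest difference in all 4 comparisons, at -2.84 and -1.70 between the lines and at 1.14 and 1.21 for the responses. LATS2 is at 1.60 and 1.38 between the lines, and the bars of AMOTL1 and WWTR1 overlap for the dual knockdown response.

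The responses themselves differed between the lines for AMOTL1 and, with dual knockdown, for YAP1. Tested as an interaction in all 18 libraries, the R1881 response differed for 1 of the 8 genes, against 14% of all genes, and the dual knockdown response for 2, against 10.9%. For AMOTL1 the R1881 response was 1.14 higher in C4-2 on the log2 scale (SE 0.26, adjusted p = 0.00426) and the dual knockdown response 1.21 higher (SE 0.23, adjusted p = 0.00149). For YAP1 the dual knockdown response was 0.39 higher in C4-2 (SE 0.085, adjusted p = 0.00448). Each of the 3 calls was kept whichever single library was left out, and both dual knockdown calls were lost with counts thinned to the smallest library (adjusted p = 0.0601 for AMOTL1 and 0.0856 for YAP1). The dual knockdown response of WWTR1 differed by 0.79 (SE 0.27, adjusted p = 0.0647) and that of AJUBA by 0.39 (SE 0.14, adjusted p = 0.0908), neither of which passed. WWTR1 did pass without C4-2 dual knockdown replicate 1 (adjusted p = 0.0431) and with DESeq2 (adjusted p = 0.0173), and AJUBA without LNCaP siScr R1881 replicate 3 (adjusted p = 0.0263). The R1881 response of WWTR1 differed by 0.33 (SE 0.44, adjusted p = 0.695), an estimate too wide at these vehicle counts to set the lines apart or together.

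Around these genes, the kinases and upstream regulators of the pathway were called in both directions with R1881. Of 22 tested of 23 listed, 7 were higher and 2 lower in LNCaP (median log2FC 0.01, all genes -0.04) and 6 were higher and 4 lower in C4-2 (median -0.07, all genes -0.02). Those are 9 of 22 against 46.6% of all genes and 10 of 22 against 32.8%. STK3, one of the kinases that activate LATS, fell in LNCaP from 87.4 to 41.7 CPM (log2FC -1.09, adjusted p = 7.88e-09) and was at 50.8 and 45.1 CPM in C4-2 (log2FC -0.17, adjusted p = 0.185). TAOK3, a kinase of the TAO family that can act upstream of STK3, rose in LNCaP from 108 to 338 CPM (log2FC 1.63, adjusted p = 3.15e-13) and in C4-2 from 144 to 239 CPM (log2FC 0.73, adjusted p = 1.96e-05). WWC1 (KIBRA), which helps to activate LATS, rose in C4-2 from 191 to 351 CPM (log2FC 0.87, adjusted p = 5.34e-07) and in LNCaP from 104 to 161 CPM (log2FC 0.61, adjusted p = 3.73e-07). With dual knockdown, 2 were higher and 9 lower in LNCaP (median -0.21, all genes 0.00) and 3 were higher and 6 lower in C4-2 (median -0.12, all genes 0.01), or 11 of 22 against 14.2% of all genes and 9 of 22 against 23.5%. Among the lower in LNCaP were MAP4K4 (log2FC -0.32, adjusted p = 0.00377, and in C4-2 -0.56, adjusted p = 1.30e-04) and TAOK1 (log2FC -0.32, adjusted p = 0.00586), kinases that act on LATS or above it, and the junction protein TJP1 (log2FC -0.31, adjusted p = 0.00446). MOB1A, the LATS cofactor, rose in C4-2 from 47.0 to 80.3 CPM (log2FC 0.77, adjusted p = 1.69e-04) and in LNCaP from 78.0 to 90.3 CPM with overlapping libraries (log2FC 0.23, adjusted p = 0.0453).

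The paralogs of TEAD1 and the VGLL cofactors held 7 genes, of which 4 were tested. With R1881, 3 were lower and none higher in LNCaP (median log2FC -0.45) and 2 were lower and none higher in C4-2 (median -0.34), against 23.2% and 15.7% of all genes as lower. TEAD2 fell in LNCaP from 13.8 to 6.39 CPM (log2FC -1.11, adjusted p = 1.87e-04) and TEAD4 in C4-2 from 21.1 to 16.2 CPM (log2FC -0.39, adjusted p = 0.0256). VGLL4, which competes with YAP for TEAD, fell in LNCaP by 0.60 (adjusted p = 5.53e-06) and in C4-2 by 0.87 (adjusted p = 8.22e-06) on the log2 scale. With dual knockdown edgeR's test passed 0 of the 4 in either line, against 14.2% of all genes in LNCaP and 23.5% in C4-2. DESeq2 also passed 0, and 2 had an unadjusted p under 0.05 in LNCaP and 1 in C4-2. Between the lines TEAD4 was higher in C4-2, by a log2FC of 1.31 with vehicle (adjusted p = 2.51e-08) and of 1.21 with R1881 (adjusted p = 7.53e-08).

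Another 17 genes known as YAP and TEAD targets did not move as a block. With R1881, 2 of 11 tested were higher and 4 lower in LNCaP (median -0.05) and 3 of 12 were higher and 6 lower in C4-2 (median -0.60, all genes -0.02), or 6 of 11 against 46.6% of all genes and 9 of 12 against 32.8%. MYOF, a membrane repair protein, rose in C4-2 from 2.09 to 59.9 CPM (log2FC 4.77, adjusted p = 1.01e-11), whereas in LNCaP it was at 2.73 and 3.65 CPM (adjusted p = 0.141), and the responses differed by 4.35 (adjusted p = 9.76e-11). CCDC80, a secreted matrix protein, fell in both lines, from 4.31 to 0.13 CPM in LNCaP (log2FC -5.08, adjusted p = 7.23e-08) and from 20.6 to 1.13 CPM in C4-2 (log2FC -4.18, adjusted p = 8.39e-11). IGFBP3, which binds insulin-like growth factors, rose in LNCaP from 2.30 to 6.79 CPM (log2FC 1.59, adjusted p = 5.54e-05) and fell in C4-2 from 8.08 to 2.16 CPM (log2FC -1.84, adjusted p = 5.64e-05).

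With dual knockdown, edgeR's test passed 0 of 11 of these targets in LNCaP (median -0.08), where 2 had an unadjusted p under 0.05 and DESeq2 passed 1, and 3 of 12 were higher and 3 lower in C4-2 (median 0.07), or 6 of 12 against 23.5% of all genes. The share in LNCaP over all genes was 14.2%. PTPN14, a phosphatase that binds YAP and holds it out of the nucleus, rose in C4-2 from 8.88 to 21.6 CPM (log2FC 1.28, adjusted p = 9.58e-06). With R1881 it had fallen there from 19.9 CPM (log2FC -1.18, adjusted p = 6.06e-06), and in LNCaP from 40.5 to 32.1 CPM (log2FC -0.35, adjusted p = 0.00214). Both C4-2 changes share the siScr R1881 libraries, so they are not independent. NUAK2, a kinase that supports YAP activity, rose from 7.0 to 13.8 CPM (log2FC 0.97, adjusted p = 3.43e-04), and the stress gene GADD45A fell from 16.6 to 9.37 CPM (log2FC -0.84, adjusted p = 8.76e-05). Between the lines, 8 of 13 were higher in C4-2 and 3 lower with vehicle (median 0.90, all genes -0.01), and 9 were higher and 4 lower with R1881, against 29.4% and 28.6% of all genes as higher and 58.9% and 58.3% in either direction. Among those with a mean of at least 1 CPM the largest difference was that of FJX1, at 0.44 and 7.12 CPM with vehicle (log2FC 4.03, adjusted p = 7.60e-11) and 0.22 and 5.59 CPM with R1881 (log2FC 4.60, adjusted p = 3.10e-11). FOXF2, below that level, had 40 counts with vehicle and 33 with R1881 in LNCaP under siScr and 0 in every C4-2 library.

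Of 10 AP-1 and immediate early genes, whose factors often sit beside TEAD on DNA, 9 were tested in LNCaP and 8 in C4-2. With R1881, 1 was higher and 4 lower in LNCaP (median log2FC -0.39) and 2 were higher and 1 lower in C4-2 (median -0.32), or 5 of 9 against 46.6% of all genes and 3 of 8 against 32.8%. FOS fell in LNCaP from 5.51 to 2.07 CPM (log2FC -1.44, adjusted p = 0.00352). Its libraries spread widely, at 4.025, 9.649 and 2.856 CPM with vehicle and 1.915, 1.465 and 2.816 CPM with R1881. ATF3 rose in both lines, from 34.7 to 78.1 CPM in LNCaP (log2FC 1.16, adjusted p = 2.47e-09) and from 9.76 to 17.5 CPM in C4-2 (log2FC 0.87, adjusted p = 6.46e-05). With dual knockdown, 3 of 9 were higher in LNCaP, against 8.27% of all genes as higher and 14.2% in either direction. Among them was JUNB (log2FC 0.59, adjusted p = 0.00371). In C4-2, 2 of 8 were higher and 1 lower, against 23.5% in either direction, FOSL2 falling from 60.9 to 35.0 CPM (log2FC -0.80, adjusted p = 1.50e-05). Between the lines, 1 of 9 was higher in C4-2 and 6 lower with vehicle, and 4 were lower with R1881. The shares over all genes were 29.5% and 29.7% as lower and 58.9% and 58.3% in either direction. JUN was lower in C4-2, by a log2FC of -1.97 with vehicle (adjusted p = 1.45e-12) and of -1.09 with R1881 (adjusted p = 7.10e-09).

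The genes whose pattern over the 6 group means was most like that of YAP1, among 14949 genes of at least 1 CPM, were PIK3CD, METTL22 and GPR75, with root mean square differences in centred log2 CPM of 0.043, 0.051 and 0.057. For CCN1 they were TOM1L2, ATP13A1 and POMT1, at 0.046, 0.059 and 0.063. CCN2 was under 1 CPM, and no likeness was computed for it.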

How the data were processed

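Gene counts of 18 libraries were analysed, grouped by sample title. Per the file headers and the paper, the authors trimmed reads of poly(A) RNA with Trim Galore, mapped them to GRCh38 with STAR and tallied read pairs per Ensembl 83 gene with FeatureCounts (1.5.0-p1) and no strand option, so that reads over 2 genes stay unassigned. The deposited counts are whole and not normalised.

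edgeR 4.0.16 in R 4.3.3 was used with TMM factors, filterByExpr (minimum count 10, minimum total 15) and the quasi-likelihood F-test, 2-sided, with p-values adjusted by Benjamini-Hochberg over all genes tested. The 9 libraries of a line formed 1 model for R1881 and dual knockdown, and all 18 formed 1 model for differences between the lines. SE was the log2FC divided by the root of F. TPM used the exonic lengths in the files. DESeq2 was version 1.42.0, and the tests were checked on simulated data. Libraries of a group differed by more than counting error. The labels do not say that they came from separate cultures, so p-values measure the spread between these libraries. Intervals cover counting error only.

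The members, the gene lists and the tests were chosen with earlier results of these data known. From each list, up to 4 genes per comparison were eligible to be named, those with the largest log2FC among genes that passed, with a mean of at least 1 CPM over the groups and libraries that did not overlap, and some of them were also given in the other line, with FOXF2 and COL1A1, after their values were seen. Promoters came from RefSeq (GRCh38.p14). Python 3.11.15 was used for other steps. The alternatives were RLE factors, no filter, a mean of at least 1 CPM, DESeq2, only the groups compared, a replicate block, counts thinned to the smallest library, and each library left out in turn. Thinning was 1 random draw, so its values carry the counting error of that draw.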

Additional observations from a re-analysis of the deposited data

Results flagged for a closer look

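3 results were singled out because an effect differed between the lines by a test of the difference itself, the interaction in edgeR over 18 libraries. That test passed 1 of 8 genes for R1881, against 14% of all genes, and 2 for dual knockdown, against 10.9%. The R1881 response of AMOTL1 was 1.14 (log2) higher in C4-2 than in LNCaP (adjusted p = 0.00426), with a log2FC of 0.85 in C4-2 and of -0.32 in LNCaP. The dual knockdown response of AMOTL1 was 1.21 higher in C4-2 (adjusted p = 0.00149), with a log2FC of 1.24 against 0.05. The dual knockdown response of YAP1 was 0.39 higher in C4-2 (adjusted p = 0.00448), with a log2FC of 0.42 against 0.05. Both dual knockdown calls were lost with counts thinned to the smallest library. Both AMOTL1 results use the C4-2 siScr R1881 libraries, and KDM1A itself fell by 3.12 in C4-2 and by 1.05 in LNCaP, so that line and depth of knockdown cannot be told apart.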

How the results depend on the processing

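Of the 8 counts of genes that passed, 5 stayed within 1.5 times of the reported count under every alternative. For R1881 in C4-2, 5 genes became 2 with counts thinned to the smallest library, and 2 to 5 when 1 library was left out. For dual knockdown in LNCaP, 0 became 1 (ANKRD1) without the filter. For the dual knockdown response between the lines, 2 became 0 when thinned. Thinning ended 9 calls of single genes with the direction kept (AMOTL1 and LATS2 with R1881 in LNCaP, TEAD1, AMOTL1 and AMOTL2 with R1881 in C4-2, WWTR1 with dual knockdown in C4-2 and between the lines with vehicle, and the dual knockdown responses of YAP1 and AMOTL1), and it lowers every depth to 3182604 counts by construction. No filter ended 2 calls (AMOTL1 with R1881 in LNCaP, adjusted p = 0.103, and AMOTL2 with R1881 in C4-2, 0.114), and so did DESeq2 for the same genes. Fitting only the groups compared ended 2 (AMOTL1 with R1881 in LNCaP, 0.0801, and WWTR1 between the lines with vehicle, 0.245). The dual knockdown response of WWTR1 was gained with no filter (0.0269), DESeq2 (0.0173) and only the groups compared (0.00728), and CCN1 between the lines with R1881 with a mean of at least 1 CPM (0.0363) and only the groups compared (0.0402). For these changes the cause was not tested.

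Directions turned for 1 value that had passed, the log2FC of WWTR1 between the lines with R1881 (0.14 when thinned, -0.62 as reported), and otherwise for values that had not. Thinned log2FC of opposite sign were -0.068 for CCN1 with R1881 in LNCaP, -0.057 for LATS2 with R1881 in C4-2, 0.12 for WWTR1, 0.058 for TEAD1, -0.21 for AMOTL1 and 0.16 for LATS2 with dual knockdown in LNCaP, 0.12 for CCN1 and -0.23 for AMOTL2 between the lines with vehicle, 0.080 for the R1881 response of AMOTL2 and -0.21 for the dual knockdown response of LATS2. Leaving out 1 library gave -0.025 to 0.094 for CCN1 with R1881 in LNCaP, -0.005 to 0.18 for LATS2 with R1881 in C4-2, -0.002 to 0.14 for AMOTL1, -0.16 to 0.22 for AMOTL2, -0.046 to 0.007 for TEAD1 and -0.067 to 0.16 for CCN1 with dual knockdown in LNCaP, -0.007 to 0.18 for AMOTL2 between the lines with vehicle and -0.077 to 0.12 for the R1881 response of AJUBA.

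Deviations of same-numbered libraries from their group means correlated weakly (0 of 18 pairs with a correlation over 0.1, from -0.074 to 0.072). Such correlations over all genes cannot tell whether the numbers pair the samples, since each group mean rests on few libraries. With replicate number as a block, 5 genes passed with R1881 in LNCaP in place of 6 (AMOTL1, adjusted p = 0.0503) and 3 dual knockdown responses in place of 2 (WWTR1, adjusted p = 0.0471). Libraries correlated best with their own number in 2 of 18 comparisons in LNCaP and 11 of 18 in C4-2, so whether the numbers pair the C4-2 samples is not settled. Over all genes, thinning lowered the number that passed from 8002 to 5012 (R1881, LNCaP), 5571 to 3536 (R1881, C4-2), 2431 to 1194 (dual knockdown, LNCaP), 3983 to 2258 (dual knockdown, C4-2), 2615 to 1338 (R1881 response) and 2028 to 843 (dual knockdown response). Leaving out a library gave 839 (without siScr R1881 replicate 2) to 2760 for dual knockdown in LNCaP, 2482 for dual knockdown in C4-2 without siScr R1881 replicate 3, and 1272 (without C4-2 dual knockdown replicate 3) to 3538 (without its replicate 1) for the dual knockdown response.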
